A study of Danio rerio with 9 samples.

Results

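The genes described here were low in zebrafish tailbuds that overexpressed *tbx16* and near their wild-type level in tailbuds that overexpressed *msgn1*. A gene was placed in the set when it had at least 100 raw counts in each wild-type sample, when its mean CPM (the count divided by the total count of the sample and multiplied by 1000000) in tg(*hsp70l:tbx16*) was at most 1/6 of the wild-type mean, and when its mean CPM in tg(*hsp70l:msgn1*) lay between 1/1.5 and 1.5 times the wild-type mean. Names starting with hox, wnt, fgf, col, cdh, cldn, apo, tbx, bmp or pax were left out. Of 31956 named genes, 12564 had enough wild-type counts, 145 of these fell to at most 1/6 in tg(*hsp70l:tbx16*), and 78 of the 145 stayed within the *msgn1* window. After 7 were left out by name (*apoa4a*, *apoa4b.2*, *apoba*, *apobb.1*, *apom*, *wnt9b* and *colgalt2*), 71 genes remained, and these are the members described here. The low level in tg(*hsp70l:tbx16*) and the level near wild type in tg(*hsp70l:msgn1*) are what chose the members, so both are given as values and without a test.

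The RNA came from 9 samples of 10 pooled tailbuds each, 3 samples per genotype. The genotypes were wild type (Tüpfel long fin background) and 2 transgenic lines, tg(*hsp70l:tbx16*) and the line tg(*hsp70l:msgn1*). Both carry the coding sequence of the named gene under the heat-shock promoter *hsp70l*, which acts in most cells of a heated embryo and not only in cells that normally express the gene. All 3 genotypes, the wild type included, were heat-shocked for 30 min at the 2 to 3 somite stage and recovered for 3 h, after which the tissue behind the last formed somite was cut off. The methods give a higher heat-shock temperature than the sample labels. By the methods, heterozygous tg(*hsp70l:msgn1*) fish and homozygous tg(*hsp70l:tbx16*) fish were crossed to wild type for the experiments. Siblings of the tg(*hsp70l:msgn1*) embryos without the transgene were the wild-type controls. No such siblings are described for tg(*hsp70l:tbx16*), so that for *tbx16* an effect of the genotype and one of the parents cannot be told apart. The sources do not say whether replicates were separate clutches, and a p-value then measures only the spread between these samples.

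Tbx16 is a T-box transcription factor and Msgn1 a basic helix-loop-helix factor. Both are made in the posterior tailbud, where neuromesodermal progenitors choose between a neural and a mesodermal fate, and both act in the passage of progenitor cells into the presomitic mesoderm. Beside the tailbud lies the yolk, whose outer syncytium, the yolk syncytial layer, takes up nutrients and secretes apolipoproteins and other plasma proteins before the liver does so.

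Total counts ran from 30750552 to 49654769 per sample. Both transgenes were seen in their lines: *tbx16* stood at 332, 356 and 390.0 CPM in wild type, 954, 1100.0 and 611 CPM in tg(*hsp70l:tbx16*) and 212, 346 and 277 CPM in tg(*hsp70l:msgn1*), and *msgn1* at 732, 871 and 735 CPM in wild type, 399, 507 and 634 CPM in tg(*hsp70l:tbx16*) and 1540.0, 1414 and 1695 CPM in tg(*hsp70l:msgn1*). By edgeR's quasi-likelihood test *tbx16* was higher in its line by 1.15 on the log2 scale (SE 0.189, adjusted p = 0.00149) and *msgn1* higher in its line by 1.19 (SE 0.201, adjusted p = 0.0262). The second call was lost, at adjusted p from 0.0521 to 0.147, without any 1 wild-type replicate, replicate 2 of tg(*hsp70l:tbx16*), or replicate 1 or 3 of tg(*hsp70l:msgn1*). Reads of a transgene and of the native gene cannot be told apart in this table. The tailbud gene *tbxta*, the zebrafish Brachyury gene, had 12862, 10798 and 14001 counts in wild type, 3283, 5469 and 5223 counts in tg(*hsp70l:tbx16*) and 4812, 7257 and 5832 counts in tg(*hsp70l:msgn1*), so the defining marker of the tissue was present in every sample. Replicate 1 of tg(*hsp70l:tbx16*) stood apart from the other replicates of its genotype for several groups of genes: the forebrain gene *otx1* had 46, 71 and 41 counts in wild type, 299, 24 and 26 counts in tg(*hsp70l:tbx16*) and 5, 4 and 89 counts in tg(*hsp70l:msgn1*), and the hatching gland gene *he1.1* had 483, 623 and 6298 counts in wild type, 5643, 0 and 84 counts in tg(*hsp70l:tbx16*) and 721, 2103 and 3509 counts in tg(*hsp70l:msgn1*). Where leaving out this library moved a member's fold by over 1.5 times, the fold without it is given too.

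All 71 members had every tg(*hsp70l:tbx16*) sample below every wild-type sample, which was so for 22.3% of the 12564 genes. All 71 also had an adjusted p under 0.05 and a lower level in tg(*hsp70l:tbx16*) by edgeR, a call made in this direction for 15.7% of 19914 genes tested (15% were higher). When scaled by library size alone, 37.0% of the genes called in either direction were lower, against 51.1% with TMM scaling, and the median log2 fold change of all genes moved from 0.031 to 0.18, so the changes of members are relative to that shift. In tg(*hsp70l:msgn1*), 0 of 71 members were called by edgeR against 0.854% of all genes, 2 members (*kif26ba* and *lrata*) had an unadjusted p under 0.05, and 1 (*kif26ba*) was called by DESeq2. Against tg(*hsp70l:msgn1*), 71 members were called lower in tg(*hsp70l:tbx16*) (19.8% of all genes), and 69 had every tg(*hsp70l:tbx16*) sample lower (14.4% of all genes), the exceptions being *fga* and *znf1156*. Nothing is read from these counts, because the rule used the same contrasts.

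Among members the mean CPM in tg(*hsp70l:tbx16*) was 0 to 0.166 of wild type with a median of 0.121, where the median of the 12564 genes was 1.08. In tg(*hsp70l:msgn1*) the members' ratio ran from 0.671 to 1.40 with a median of 0.824, against 0.891 over all genes, and 56 of the 71 lay below 1. The share of all genes below 1 was not computed. With TMM scaling the median log2 fold change in that line was -0.0845 in members and -0.02 over all tested genes. For 56 members the tg(*hsp70l:msgn1*) and wild-type samples overlapped, which was so for 78.6% of all genes. Of the 15 members without overlap 14 were lower, at ratios from 0.671 to 0.804, and *lrata* was higher, where 17.8% of all genes were lower and 3.65% higher without overlap. In these pooled tissues fewer cells of a type and less RNA per cell cannot be told apart.

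**Figure D1:**
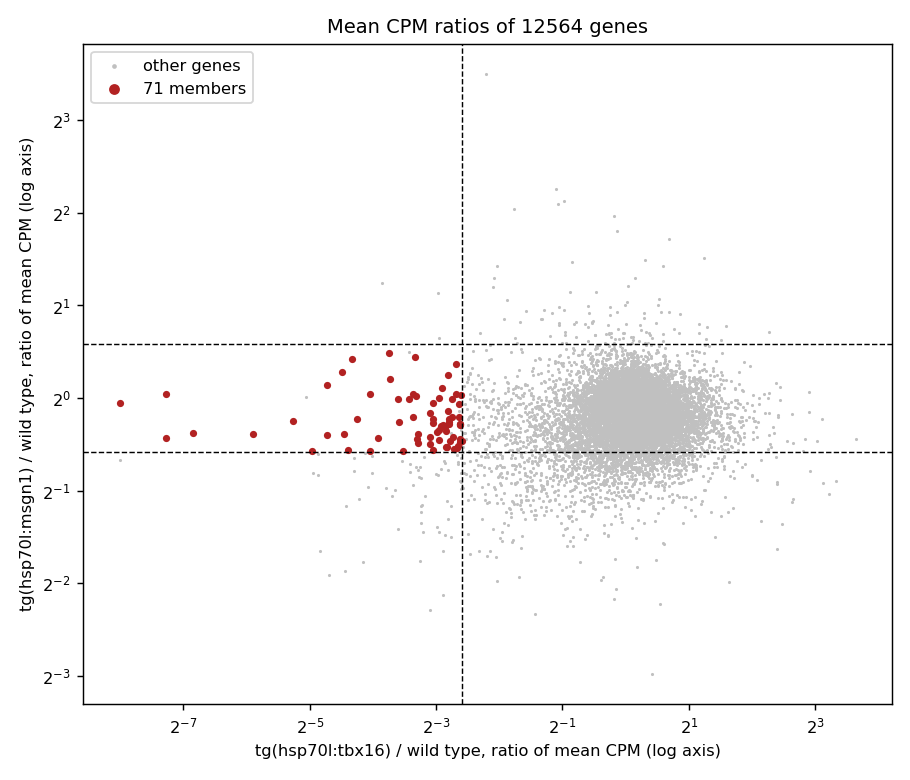
Ratio of mean CPM to wild type in tg(*hsp70l:tbx16*) (x axis, log scale) and tg(*hsp70l:msgn1*) (y axis, log scale) for 12564 genes, 1 point per gene, with dashed lines at the thresholds 1/6, 1/1.5 and 1.5 and genes at 0 drawn at the left edge. The 71 members, in red, fill the left middle field except for the points of the 7 genes left out by name.

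The thresholds cut a continuous range. Just inside 1/6 were the homeobox gene *dlx6a* (ratio 0.1661), *CT030712.1* (0.164) and *capn8* (0.1632). Just outside were *arg2* (0.1678), *afap1l2* (0.1686) and the motor and sensory neuron gene *isl1* (0.1689). At the lower edge of the *msgn1* window *si:dkey-102m7.3* (0.671), *cnnm2b* (0.6711) and *szl* (0.6741) were inside, and *creb3l3b* (0.6665), *si:ch211-191i18.2* (0.6661) and *si:ch211-213d14.2* (0.6653) were outside. At the upper edge *lrata* (1.405), *ascl1a* (1.361) and *kif26ba* (1.341) were inside, and *kctd12.1* (1.568), *crabp2b* (2.191) and *cdaa* (2.36) were outside.

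By known role the members fell into 7 groups: 10 lipoprotein, plasma protein and nuclear receptor genes, 7 solute carriers, 13 enzymes, proteases and a ferritin, 10 neural genes, 8 signalling and transcription regulators, 7 genes of cell structure and membrane, and 16 genes to which no role is given here. The median ratio in tg(*hsp70l:tbx16*) was 0.142, 0.14, 0.121, 0.127, 0.145, 0.0751 and 0.066 in these groups, in that order.

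**Figure D2:**
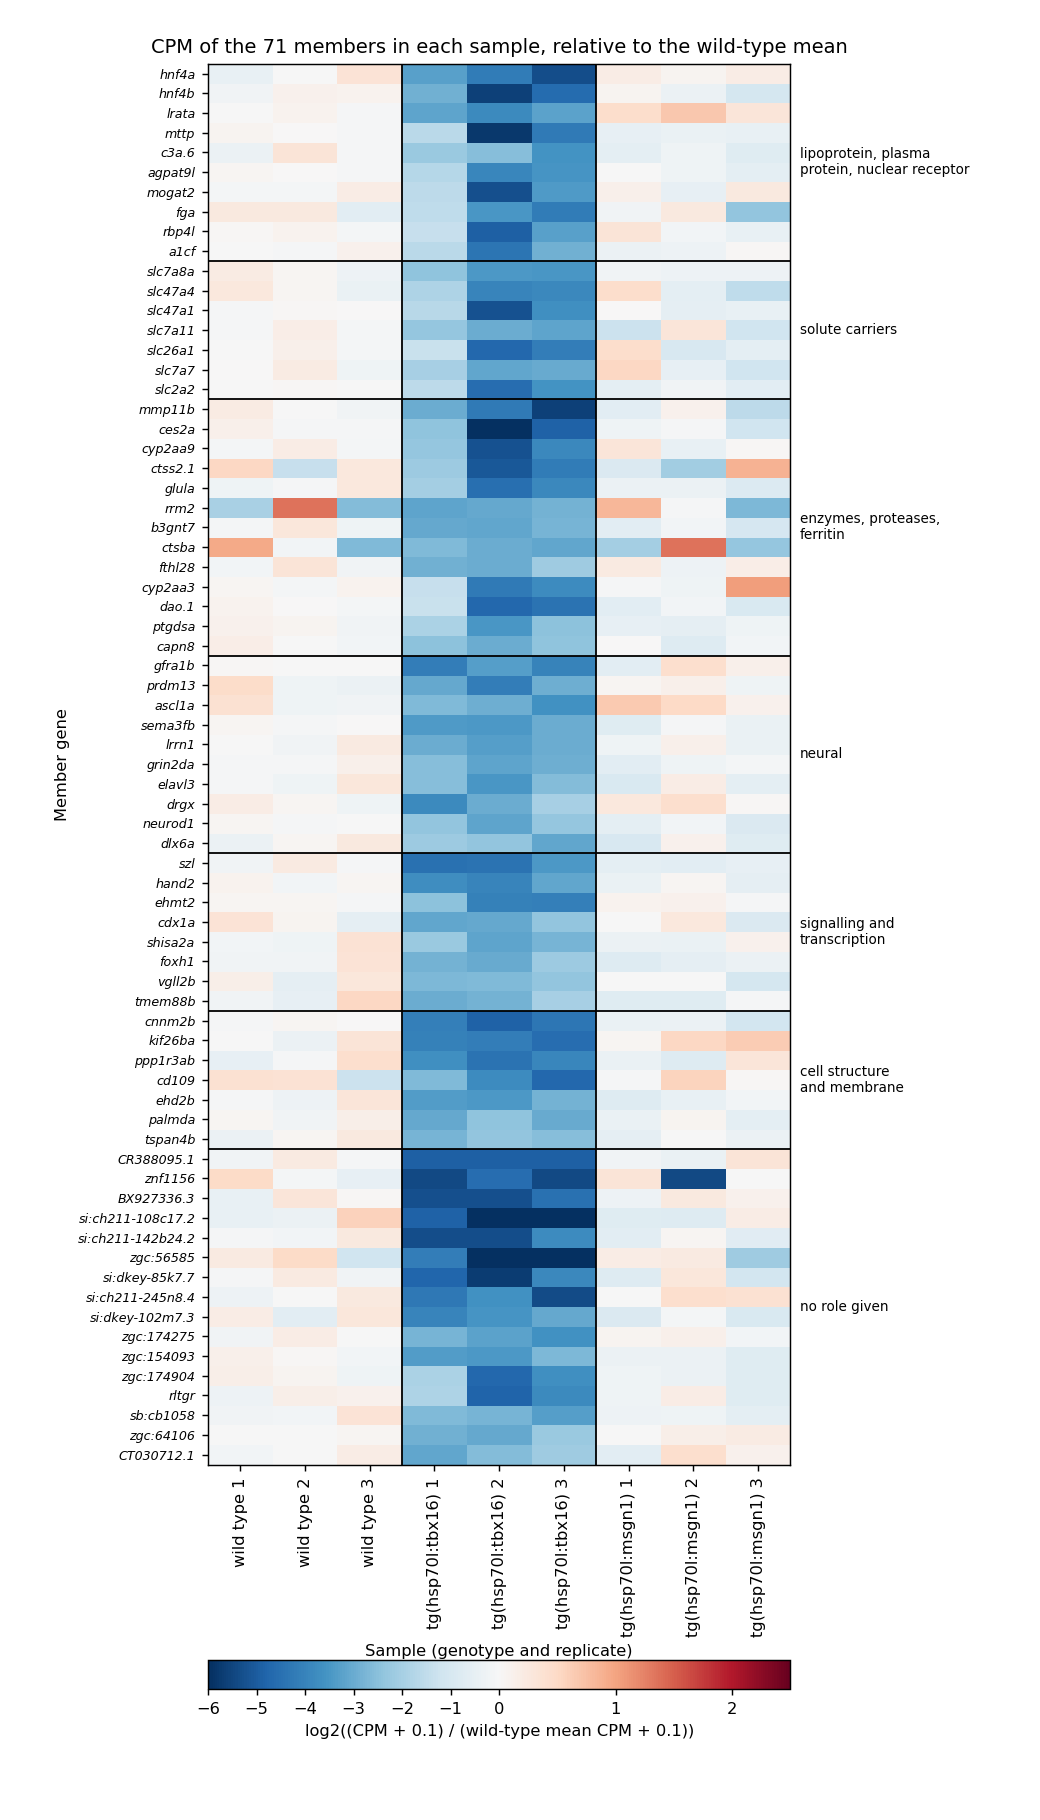
CPM of each member (rows, grouped by role) in each of the 9 samples (columns) relative to its wild-type mean, as log2((CPM + 0.1) / (wild-type mean CPM + 0.1)), blue below and red above wild type. The tg(*hsp70l:tbx16*) columns are blue for all 71 members, and replicate 1 is paler than replicates 2 and 3 in most members of the upper 3 groups.

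The lipoprotein and plasma protein group held several genes known from the yolk syncytial layer, the liver or the intestine. In which cells the genes of this group were expressed was not measured here. *mogat2*, an acyltransferase of triglyceride synthesis, had 19.5, 19.6 and 24 CPM in wild type, 7.04, 0.443 and 1.88 CPM in tg(*hsp70l:tbx16*) and 22.9, 15.1 and 24.8 CPM in tg(*hsp70l:msgn1*). *mttp*, which loads lipid onto apolipoprotein B, had 20.7, 19.8 and 18.7 CPM in wild type, 6.39, 0.262 and 0.963 CPM in tg(*hsp70l:tbx16*) and 14.1, 14.8 and 14.4 CPM in tg(*hsp70l:msgn1*). Relative to the wild-type mean, the tg(*hsp70l:tbx16*) replicates stood at 0.334, 0.0211 and 0.0892 for *mogat2* and at 0.324, 0.0133 and 0.0488 for *mttp*, with replicate 1 the highest in both. *a1cf*, an RNA-binding partner of the enzyme that edits apolipoprotein B mRNA in mammals, had 10.5, 9.89 and 11.3 CPM in wild type, 3.36, 0.403 and 1.32 CPM in tg(*hsp70l:tbx16*) and 8.2, 8.56 and 10.7 CPM in tg(*hsp70l:msgn1*), a mean 6.23-fold below wild type. *agpat9l*, an acyltransferase of glycerolipid synthesis, had 10.5, 10.2 and 9.55 CPM in wild type, 3.01, 0.584 and 0.77 CPM in tg(*hsp70l:tbx16*) and 9.95, 8.32 and 6.6 CPM in tg(*hsp70l:msgn1*). The samples of tg(*hsp70l:tbx16*) were below all others for these 4 genes, and those of tg(*hsp70l:msgn1*) overlapped wild type except for *mttp*, which was lower.

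The nuclear receptor *hnf4a*, a regulator of lipoprotein and liver genes, and its paralog *hnf4b* had the lowest ratios of the group. *hnf4a* had 127, 135 and 199 counts in wild type, 13, 6 and 0 counts in tg(*hsp70l:tbx16*) and 137, 150 and 170 counts in tg(*hsp70l:msgn1*). *hnf4b* had 181, 179 and 200 counts in wild type, 22, 0 and 4 counts in tg(*hsp70l:tbx16*) and 153, 136 and 86 counts in tg(*hsp70l:msgn1*). Means in CPM were 26.4-fold and 22.1-fold below wild type, on 19 and 26 counts over the 3 tg(*hsp70l:tbx16*) samples, and 64.9-fold and 98.9-fold without replicate 1, on 6 and 4 counts. For *hnf4a* the exact Poisson interval on those 19 counts, pooled over the samples, allows a fold between 17.3 and 45 (95%, counting error only). *lrata*, a retinol esterifying enzyme, was the member with the highest level in tg(*hsp70l:msgn1*) relative to wild type, at 3.87, 4.15 and 3.68 CPM in wild type, 0.351, 0.181 and 0.337 CPM in tg(*hsp70l:tbx16*) and 5.3, 6.32 and 4.81 CPM in tg(*hsp70l:msgn1*). The remaining members of the group were *rbp4l*, a retinol carrier relative, *fga*, the fibrinogen alpha chain, and the complement gene *c3a.6*, which were 6.23-fold, 6.67-fold and 7.16-fold lower. Without replicate 1 of tg(*hsp70l:tbx16*) the folds of *rbp4l*, *fga*, *mogat2*, *mttp*, *a1cf* and *agpat9l* were 18.3, 18.4, 18.1, 32.3, 12.2 and 14.9, against 6.23, 6.67, 6.75, 7.78, 6.23 and 6.92 with it.

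The solute carriers take up or pass on nutrients and metabolites. *slc7a8a*, a neutral amino acid transporter, had 33.7, 30.3 and 23.7 CPM in wild type, 5.46, 2.62 and 2.53 CPM in tg(*hsp70l:tbx16*) and 25.6, 23.6 and 23.5 CPM in tg(*hsp70l:msgn1*). *slc7a11*, the cystine and glutamate exchanger, had 13.3, 15.5 and 12.7 CPM in wild type, 2.73, 1.65 and 1.44 CPM in tg(*hsp70l:tbx16*) and 5.66, 17.1 and 5.97 CPM in tg(*hsp70l:msgn1*). Replicate 2 of tg(*hsp70l:msgn1*) was above wild type for *slc7a11* and the other 2 replicates were below it, so the ratio of 0.692 averages unlike samples. The glucose transporter *slc2a2* had 10.2, 10.6 and 10.3 CPM in wild type, 3.43, 0.342 and 0.77 CPM in tg(*hsp70l:tbx16*) and 6.86, 8.95 and 6.71 CPM in tg(*hsp70l:msgn1*). Paralogs were found in this group: *slc47a1* and *slc47a4*, which extrude organic cations, and *slc7a7* with *slc7a8a* and *slc7a11*. *slc47a1* had 11.7, 12.3 and 12.2 CPM in wild type, 3.73, 0.222 and 0.842 CPM in tg(*hsp70l:tbx16*) and 12.1, 8.37 and 8.84 CPM in tg(*hsp70l:msgn1*), and its mean was 7.55-fold below wild type against 7.74-fold for *slc47a4* and 6.91-fold for *slc7a7*. The sulfate transporter *slc26a1* had 4.56, 5.06 and 4.21 CPM in wild type, 1.75, 0.0806 and 0.168 CPM in tg(*hsp70l:tbx16*) and 6.24, 2.3 and 3.02 CPM in tg(*hsp70l:msgn1*), a mean 6.91-fold below wild type. When replicate 1 of tg(*hsp70l:tbx16*) was left out *slc26a1* was 37-fold lower, on 11 counts, *slc47a1* 22.7-fold, *slc47a4* 17.5-fold and *slc2a2* 18.6-fold in place of 6.85-fold. All 7 solute carriers were lower in tg(*hsp70l:msgn1*) than in wild type by mean, at ratios from 0.692 to 0.855, and in 6 the samples overlapped. The median of this ratio over the 12564 genes was itself 0.891. With TMM scaling the median log2 fold change of the 7 in tg(*hsp70l:msgn1*) was -0.0952, and 0 were called by edgeR.

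Among the enzymes, *capn8*, a calpain protease, had 72.9, 63.4 and 58.9 CPM in wild type, 11.8, 8.06 and 12 CPM in tg(*hsp70l:tbx16*) and 65.9, 37.7 and 57.5 CPM in tg(*hsp70l:msgn1*). Replicate 1 of tg(*hsp70l:tbx16*) did not stand apart for *capn8*, and replicate 2 was the lowest in tg(*hsp70l:msgn1*). *glula*, glutamine synthetase, had 48.7, 55.1 and 68.7 CPM in wild type, 13.8, 2.44 and 3.83 CPM in tg(*hsp70l:tbx16*) and 45.5, 45.2 and 32.1 CPM in tg(*hsp70l:msgn1*). *dao.1*, a D-amino acid oxidase, had 39.2, 37.3 and 34 CPM in wild type, 14.5, 1.31 and 1.61 CPM in tg(*hsp70l:tbx16*) and 23.9, 32.7 and 19.6 CPM in tg(*hsp70l:msgn1*). For *glula* and *dao.1* tg(*hsp70l:msgn1*) was also below every wild-type sample, and replicate 1 of tg(*hsp70l:tbx16*) was the highest of its genotype. The cytochrome P450 genes *cyp2aa9* and *cyp2aa3*, near each other in 1 cluster, were 10.7-fold and 6.41-fold below wild type and had *msgn1* ratios of 0.997 and 1.29. Also in this group were the carboxylesterase *ces2a* (15.2-fold lower), the metalloprotease *mmp11b* (20.9-fold), the glycosyltransferase *b3gnt7* (8.28-fold), the ferritin *fthl28* (6.42-fold) and *ptgdsa*, a prostaglandin D synthase (6.16-fold). Without replicate 1 of tg(*hsp70l:tbx16*) *cyp2aa9* and *cyp2aa3* were 24.3-fold and 20.4-fold lower, *glula* 18.4-fold in place of 8.59-fold, and *dao.1* 25.2-fold in place of 6.34-fold. *ces2a* and *mmp11b* were then 90.0-fold and 59.5-fold lower, on 7 and 8 counts.

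Replicate 1 of tg(*hsp70l:tbx16*) was the highest of the 3 in 10 of 10 lipoprotein and plasma protein genes, 7 of 7 solute carriers and 9 of 13 enzymes. It was the highest in 5 of 10 neural genes and 2 of 8 regulators, and in 36.8% of the 12564 genes. Relative to wild type, the median of the lipoprotein group was 0.308 in replicate 1, 0.0345 in replicate 2 and 0.0708 in replicate 3. For solute carriers these medians were 0.273, 0.0554 and 0.0742. In neural genes they were 0.131, 0.0995 and 0.126, and in regulators 0.124, 0.108 and 0.162. Single genes of both groups differed more between replicates than these medians, such as *drgx* at 0.0631, 0.121 and 0.243 and *ehmt2* at 0.18, 0.0559 and 0.0547. In 27 of the 71 members replicate 1 was at least 2-fold above both others, which was so for 1.15% of the 12564 genes. These 27 were 8 lipoprotein and plasma protein genes, 6 solute carriers, 7 enzymes, *ehmt2*, *cd109*, *zgc:56585*, *rltgr*, *si:ch211-108c17.2* and *zgc:174904*. Without replicate 1 the median ratio of all members was 0.0692 in place of 0.121, that of the lipoprotein group 0.0549 in place of 0.142, that of solute carriers 0.0571 in place of 0.14, and that of enzymes 0.0545 in place of 0.121. It was 0.117 in place of 0.127 in neural genes, 0.138 in place of 0.145 in regulators, 0.0461 in place of 0.0751 in genes of cell structure and membrane, and 0.0458 in place of 0.066 in genes with no role given. The fold of 25 members moved by over 1.5 times without replicate 1, that of 1 member without replicate 2 (*znf1156*) and that of 4 without replicate 3 (*drgx*, *si:dkey-85k7.7*, *BX927336.3* and *si:ch211-142b24.2*). Without replicate 3 *drgx* was 10.9-fold lower in place of 7.03-fold and *si:dkey-85k7.7* 41.8-fold in place of 26.4-fold. *BX927336.3* and *si:ch211-142b24.2* had no count left without replicate 3, and *znf1156* had no count left without replicate 2.

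A list of yolk syncytial layer and liver-type genes held 27 that are not members. Of these, *apoa4a*, *apoa4b.2*, *apoba*, *apobb.1* and *apom* met the thresholds and were left out by name alone, so they were not counted here. Of the other 22, 20 were tested, and 15 were lower and 1 higher in tg(*hsp70l:tbx16*) by edgeR, with a median log2 fold change of -2.43 against 0.0305 over all genes. Without replicate 1 of tg(*hsp70l:tbx16*) 17 of them were lower and 0 higher, and fewer were lower without replicate 2 (8) or 3 (6) of that line or without wild-type replicate 1 (7), 2 (7) or 3 (10). In tg(*hsp70l:msgn1*) 0 of 20 were called in either direction, with a median of 0.0703. With 0.854% of all genes called there, a list this small can hold 0. That count was not repeated in the alternative settings. Medians relative to wild type were 0.507, 0.0418 and 0.0816 in tg(*hsp70l:tbx16*) replicates 1, 2 and 3, and replicate 1 was at least 2-fold above both others in 17 of the 20. The summed level of these genes ran from 5070 to 5470 CPM in wild type, from 3130 to 3690 CPM in tg(*hsp70l:tbx16*) and from 4980 to 5910 CPM in tg(*hsp70l:msgn1*). Most of this sum was *apoeb* and *apoc1*, so it says little about the other genes. Their means were 3000 and 750 CPM in wild type and 2230 and 740 CPM in tg(*hsp70l:tbx16*). *apoc1* was not called there (log2 fold change -0.16, edgeR adjusted p = 0.554). Of 6 defining markers (*apoa2*, *apobb.1*, *afp4*, *mttp*, *hnf4a* and *slc40a1*), 1 reached 0 in a library, *hnf4a* in replicate 3 of tg(*hsp70l:tbx16*).

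*apobb.1*, the major apolipoprotein B gene, had 18087, 13456 and 14357 counts in wild type, 6159, 523 and 853 counts in tg(*hsp70l:tbx16*) and 11723, 13525 and 11451 counts in tg(*hsp70l:msgn1*), and was left out of the set by its name alone. Relative to wild type its tg(*hsp70l:tbx16*) replicates stood at 0.399, 0.0273 and 0.0531, with replicate 1 the highest, and no test is given for it because the rule used these values. *apoa2*, another apolipoprotein, fell by 2.70 on the log2 scale (SE 0.795, edgeR adjusted p = 0.0267), and had a log2 fold change of -4.69 without replicate 1 of tg(*hsp70l:tbx16*). The call of *apoa2* was lost, at adjusted p from 0.0522 to 0.0787, without wild-type replicate 1 or 2 or without replicate 3 of tg(*hsp70l:tbx16*). *apoeb*, the most counted gene of the list, had 127917, 113045 and 113426 counts in wild type, 86392, 111085 and 95575 counts in tg(*hsp70l:tbx16*) and 115988, 96816 and 126590 counts in tg(*hsp70l:msgn1*), a smaller log2 fold change of -0.58 (SE 0.190, edgeR adjusted p = 0.0430). This call was lost without any 1 sample of wild type or tg(*hsp70l:tbx16*) and without replicate 3 of tg(*hsp70l:msgn1*), at adjusted p from 0.0525 to 0.132. The iron exporter *slc40a1* was higher in tg(*hsp70l:tbx16*), by 0.51 on the log2 scale (SE 0.152, edgeR adjusted p = 0.0276), a call lost without any 1 wild-type replicate or replicate 1 or 2 of its line, at adjusted p up to 0.108. The amount of yolk-side tissue in each dissection was not measured, and its part in these values was not tested.

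**Figure D3:**
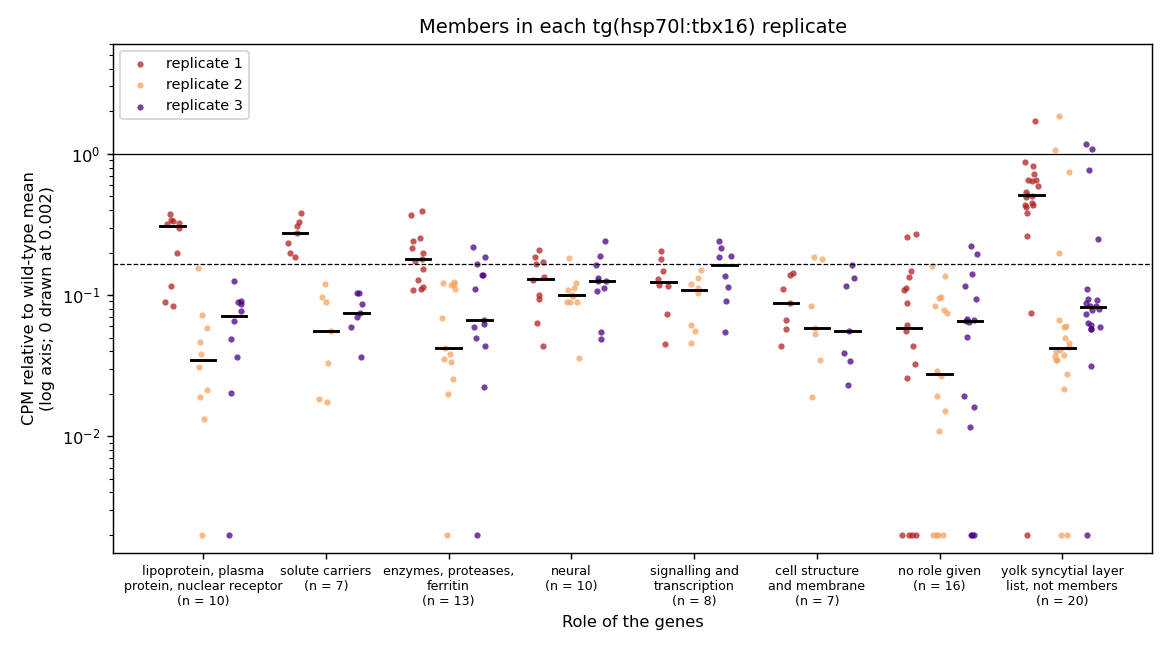
CPM in each tg(*hsp70l:tbx16*) replicate relative to the wild-type mean (y axis, log scale, 0 drawn at 0.002), 1 point per gene, for the 7 groups of members and for the 20 tested yolk syncytial layer genes that did not meet the thresholds, with black bars at the medians and a dashed line at 1/6. In the first group the medians are 0.308, 0.0345 and 0.0708, while in the neural group they are 0.131, 0.0995 and 0.126.

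The neural members spanned receptors, guidance cues, RNA-binding proteins and transcription factors, and in none of the 10 was replicate 1 of tg(*hsp70l:tbx16*) 2-fold above both others. They are called neural by known role, and their cells of expression were not measured here. In the wild-type single-cell lists described below, *elavl3* and *prdm13* rise from neuromesodermal progenitors to the neuronal state and *sema3fb* falls. The other neural members are not listed for that step. *grin2da*, an NMDA-type glutamate receptor subunit, had 137, 138 and 158 CPM in wild type, 24.4, 16.1 and 18.9 CPM in tg(*hsp70l:tbx16*) and 94.2, 122 and 131 CPM in tg(*hsp70l:msgn1*). *elavl3*, the RNA-binding protein HuC that marks new neurons, had 99.2, 88.5 and 128 CPM in wild type, 17.6, 9.32 and 17.23 CPM in tg(*hsp70l:tbx16*) and 56.7, 120.1 and 70.7 CPM in tg(*hsp70l:msgn1*). Every tg(*hsp70l:tbx16*) value of both genes was below every other value, and *elavl3* differed most among the tg(*hsp70l:msgn1*) samples, where replicate 2 reached the wild-type range. *sema3fb*, a secreted semaphorin, had 57, 52 and 55.5 CPM in wild type, 5.13, 4.87 and 6.91 CPM in tg(*hsp70l:tbx16*) and 33.1, 51.7 and 41.3 CPM in tg(*hsp70l:msgn1*). *lrrn1*, a leucine-rich repeat membrane protein of neurons, had 42.5, 36.8 and 50.6 CPM in wild type, 5.49, 4.29 and 5.46 CPM in tg(*hsp70l:tbx16*) and 36.2, 47.2 and 32.7 CPM in tg(*hsp70l:msgn1*). These 2 genes were 9.73-fold and 8.52-fold below wild type by mean.

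The neural transcription factors were less abundant in counts. *drgx*, a homeobox gene of sensory neurons, had 13.2, 11.8 and 9.5 CPM in wild type, 0.726, 1.39 and 2.79 CPM in tg(*hsp70l:tbx16*) and 13.8, 15.5 and 11.8 CPM in tg(*hsp70l:msgn1*), and was the neural member in which the replicates of tg(*hsp70l:tbx16*) were most spread. *prdm13*, a zinc finger gene of dorsal spinal interneurons in mouse, had 6.22, 3.77 and 3.55 CPM in wild type, 0.451, 0.161 and 0.505 CPM in tg(*hsp70l:tbx16*) and 4.68, 4.95 and 3.81 CPM in tg(*hsp70l:msgn1*). *ascl1a*, a proneural basic helix-loop-helix gene, had 4.62, 2.92 and 3.07 CPM in wild type, 0.476, 0.383 and 0.193 CPM in tg(*hsp70l:tbx16*) and 5.63, 5.01 and 3.81 CPM in tg(*hsp70l:msgn1*). All 3 had *msgn1* samples that overlapped wild type, with ratios of 1.19, 0.993 and 1.36. *neurod1*, *dlx6a* and the GDNF receptor *gfra1b* completed the group, at 6.32-fold, 6.02-fold and 16.5-fold below wild type.

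Other early neuron genes did not move in 1 direction with these members. Of 18 tested early neuron genes outside the set, 9 were lower and 5 higher in tg(*hsp70l:tbx16*) by edgeR. Over all tested genes 15.7% were lower and 15% higher in that line. In tg(*hsp70l:msgn1*) 0 of the 18 were called, against 0.854% of all genes, so nothing is read from that 0. It was not recounted in the alternative settings. The median log2 fold change of the 18 was -0.60 in tg(*hsp70l:tbx16*), and their summed level was 327 to 397 CPM in wild type, 266 to 274 CPM in tg(*hsp70l:tbx16*) and 310 to 348 CPM in tg(*hsp70l:msgn1*). Without replicate 1 of tg(*hsp70l:tbx16*) 6 were lower and 5 higher. Close relatives of members were among those that rose. *elavl4*, a paralog of *elavl3*, had 119, 73 and 116 counts in wild type, 800, 614 and 392 counts in tg(*hsp70l:tbx16*) and 42, 118 and 51 counts in tg(*hsp70l:msgn1*), a rise of 2.28 on the log2 scale (SE 0.340, edgeR adjusted p = 0.000872). *ascl1b*, the paralog of *ascl1a*, had 57, 56 and 78 counts in wild type, 363, 383 and 338 counts in tg(*hsp70l:tbx16*) and 55, 30 and 49 counts in tg(*hsp70l:msgn1*), a rise of 2.21 (SE 0.321, adjusted p = 0.000743). Every tg(*hsp70l:tbx16*) sample of these paralogs was above every other sample, whereas for *elavl3* and *ascl1a* every tg(*hsp70l:tbx16*) sample was below every other. The rule chose *elavl3* and *ascl1a* by that low level, so their side of each pair was set beforehand. Only the rise of *elavl4* and *ascl1b* was tested.

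The EBF genes, factors of neuronal differentiation, also parted. *ebf3a* had 92, 39 and 108 counts in wild type, 1046, 1412 and 1668 counts in tg(*hsp70l:tbx16*) and 45, 79 and 38 counts in tg(*hsp70l:msgn1*), a rise of 3.86 on the log2 scale (SE 0.342, edgeR adjusted p = 4.32e-05). *ebf2* had 873, 591 and 853 counts in wild type, 144, 190 and 162 counts in tg(*hsp70l:tbx16*) and 666, 745 and 766 counts in tg(*hsp70l:msgn1*), a log2 fold change of -2.51 (SE 0.151, adjusted p = 4.62e-06). The names *ascl1b* and *ebf3a* stand on more than 1 line of the table and the line with most counts was used, so their identity is uncertain. *gap43*, a growth cone protein, rose by 1.78 (SE 0.307, adjusted p = 0.00196), and *dpysl4*, a collapsin response mediator, had a log2 fold change of -2.70 (SE 0.197, adjusted p = 1.45e-05). These calls of *elavl4*, *ascl1b*, *ebf3a*, *ebf2*, *gap43* and *dpysl4* were kept in all 15 alternative settings. Sensory neuron genes outside the set went both ways as well, with 4 of 13 tested genes lower and 3 higher. Among all tested genes 15.7% were lower and 15% higher, so these small counts are not read further. *isl2a* had a log2 fold change of -2.10 (SE 0.110, edgeR adjusted p = 2.62e-06) and *pou4f2* one of 5.17 (SE 0.747, adjusted p = 0.000726). *pou4f2* had 4, 2 and 6 counts in wild type and 101, 209 and 230 counts in tg(*hsp70l:tbx16*), so its fold rests on few wild-type counts.

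**Figure D4:**
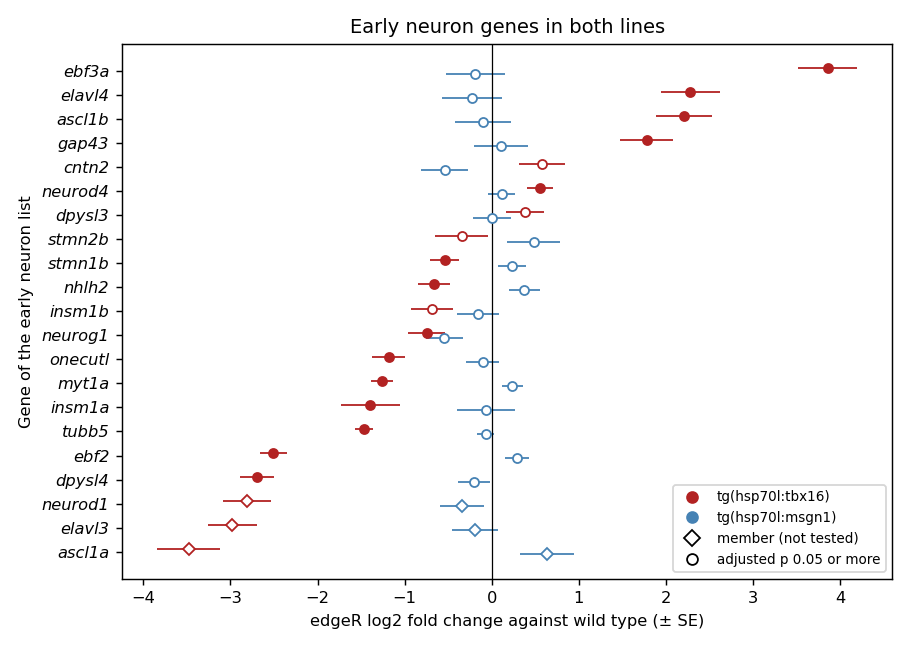
edgeR log2 fold change against wild type ± SE (x axis) for the 21 tested early neuron genes (y axis) in tg(*hsp70l:tbx16*) in red and tg(*hsp70l:msgn1*) in blue, with members as diamonds and genes with an adjusted p of 0.05 or more as open circles. In red, values run from *ascl1a* at -3.48 to *ebf3a* at 3.86, while all blue points are open.

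The regulators act in several pathways. *szl* encodes Sizzled, a secreted inhibitor of the Tolloid proteases that cleave the BMP antagonist Chordin, and it was the member with the most wild-type CPM, at 189, 254 and 209 CPM in wild type, 9.69, 9.91 and 19.8 CPM in tg(*hsp70l:tbx16*) and 142, 141 and 155 CPM in tg(*hsp70l:msgn1*). Its tg(*hsp70l:tbx16*) mean was 16.5-fold below wild type, and its tg(*hsp70l:msgn1*) samples were also below all wild-type samples at a ratio of 0.674. *cdx1a*, a caudal-type homeobox gene of posterior patterning, had 193, 158 and 104 CPM in wild type, 17.6, 18.1 and 28.8 CPM in tg(*hsp70l:tbx16*) and 149, 182 and 82.5 CPM in tg(*hsp70l:msgn1*). The tg(*hsp70l:msgn1*) samples of *cdx1a* overlapped the wild-type range, and the tg(*hsp70l:tbx16*) samples lay below both. *hand2*, a basic helix-loop-helix gene of lateral mesoderm and heart, had 44.1, 37.3 and 43.1 CPM in wild type, 3.06, 2.56 and 4.72 CPM in tg(*hsp70l:tbx16*) and 31.9, 43.2 and 28.8 CPM in tg(*hsp70l:msgn1*), 12.1-fold below wild type by mean. *ehmt2*, a histone H3 lysine methyltransferase, had 28.5, 28.5 and 26.2 CPM in wild type, 4.98, 1.55 and 1.52 CPM in tg(*hsp70l:tbx16*) and 29.7, 30.0 and 26.4 CPM in tg(*hsp70l:msgn1*). For *ehmt2* tg(*hsp70l:msgn1*) and wild type lay together, and replicate 1 of tg(*hsp70l:tbx16*) was more than 2-fold above the other replicates, with a mean fold of 10.3 and one of 18.1 without it. The other regulators were *foxh1*, a partner of Smad proteins in Nodal signalling (6.55-fold lower), *shisa2a* (6.74-fold), *vgll2b* (6.19-fold) and *tmem88b* (6.13-fold). In 6 of the 8 regulators replicate 3 was the highest tg(*hsp70l:tbx16*) sample, a share that was not computed over all genes.

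*cdx1a* belongs to a list of tailbud progenitor transcription factors. Of the other 21, all tested, 15 were lower and 1 higher in tg(*hsp70l:tbx16*), and 3 lower (*noto*, *pou5f3* and *foxd3*) in tg(*hsp70l:msgn1*), with median log2 fold changes of -1.08 and -0.23. Their summed level was 3310 to 3790 CPM in wild type, 1590 to 2280 CPM in tg(*hsp70l:tbx16*) and 2800 to 3390 CPM in tg(*hsp70l:msgn1*). Without replicate 1 of tg(*hsp70l:tbx16*) 14 were lower and 0 higher. Over all tested genes 15.7% were lower and 15% higher in tg(*hsp70l:tbx16*), and 0.854% were called in tg(*hsp70l:msgn1*). The 3 calls in tg(*hsp70l:msgn1*) were not recounted in the alternative settings. The number of all genes called in that line ran from 37 to 1198 with a single replicate left out.

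The genes of cell structure and membrane had a median ratio of 0.0751 in tg(*hsp70l:tbx16*) and one of 0.822 in tg(*hsp70l:msgn1*). *kif26ba*, of the kinesin superfamily, had 25.9, 20.7 and 33 CPM in wild type, 1.53, 1.41 and 1.03 CPM in tg(*hsp70l:tbx16*) and 27.5, 37.8 and 41.4 CPM in tg(*hsp70l:msgn1*). Its mean in tg(*hsp70l:tbx16*) was 0.0499 of wild type, and its *msgn1* ratio of 1.34 was among the highest of the members. *cnnm2b*, a membrane protein of magnesium transport, had 6.11, 6.55 and 6.38 CPM in wild type, 0.276, 0.121 and 0.217 CPM in tg(*hsp70l:tbx16*) and 4.84, 4.98 and 2.95 CPM in tg(*hsp70l:msgn1*), 31-fold below wild type. Its tg(*hsp70l:tbx16*) values rest on 26 counts over 3 samples. The tetraspanin *tspan4b* had 9.32, 12.4 and 14.1 CPM in wild type, 1.65, 2.21 and 1.95 CPM in tg(*hsp70l:tbx16*) and 8.26, 11.8 and 9.39 CPM in tg(*hsp70l:msgn1*). The palmdelphin gene *palmda* was 7.4-fold lower, *ehd2b*, a caveolar ATPase, 9.84-fold, *ppp1r3ab*, a glycogen-targeting subunit of protein phosphatase 1, 19.1-fold, and *cd109* 13.3-fold.

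Of the 16 members with no role given, 5 had 11 or fewer counts over the 3 tg(*hsp70l:tbx16*) samples. *CR388095.1* had 110, 118 and 111 counts in wild type, 0, 0 and 0 counts in tg(*hsp70l:tbx16*) and 77, 80 and 139 counts in tg(*hsp70l:msgn1*). With 0 counts in 3 libraries it was at least 126-fold lower, taking a floor of 3 counts over the group, and the exact 95% interval given for the next genes would start lower, at 103-fold. *BX927336.3* had 121, 162 and 151 counts in wild type, 0, 0 and 3 counts in tg(*hsp70l:tbx16*) and 92, 163 and 154 counts in tg(*hsp70l:msgn1*), a pooled ratio 163-fold below wild type with a counting interval from 55.8 to 791. *si:ch211-108c17.2* had 342, 288 and 625 counts in wild type, 11, 0 and 0 counts in tg(*hsp70l:tbx16*) and 194, 225 and 459 counts in tg(*hsp70l:msgn1*), 126-fold below wild type when pooled (70.6 to 253). All its tg(*hsp70l:tbx16*) counts came from replicate 1. *znf1156* had 255, 133 and 115 counts in wild type, 0, 4 and 0 counts in tg(*hsp70l:tbx16*) and 160, 0 and 154 counts in tg(*hsp70l:msgn1*), and 1 library of tg(*hsp70l:msgn1*) held 0 counts of it, so that it is not even within that genotype. *si:ch211-142b24.2* had 158, 118 and 180 counts in wild type, 0, 0 and 8 counts in tg(*hsp70l:tbx16*) and 75, 146 and 89 counts in tg(*hsp70l:msgn1*).

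Higher in counts were *zgc:56585*, at 131, 155 and 49.4 CPM in wild type, 6.26, 1.21 and 1.3 CPM in tg(*hsp70l:tbx16*) and 128, 130.5 and 25.4 CPM in tg(*hsp70l:msgn1*), and *si:dkey-102m7.3*, at 40.5, 23.4 and 43.5 CPM in wild type, 2.2, 3.00 and 4.16 CPM in tg(*hsp70l:tbx16*) and 19.9, 33.2 and 19 CPM in tg(*hsp70l:msgn1*). *zgc:56585* was 38.2-fold below wild type (89.1-fold without replicate 1 of tg(*hsp70l:tbx16*)), and replicate 3 of both wild type and tg(*hsp70l:msgn1*) was lower than its other replicates. *si:dkey-85k7.7* had 24.1, 29.6 and 22.1 CPM in wild type, 0.827, 0.383 and 1.66 CPM in tg(*hsp70l:tbx16*) and 14.6, 30.9 and 11.8 CPM in tg(*hsp70l:msgn1*), and *CT030712.1* 16.4, 18.3 and 21.2 CPM in wild type, 2.03, 3.00 and 4.14 CPM in tg(*hsp70l:tbx16*) and 11.9, 24.9 and 20.2 CPM in tg(*hsp70l:msgn1*). *si:dkey-102m7.3* and *si:dkey-85k7.7* are long noncoding RNAs in RefSeq. The other members of the group were *si:ch211-245n8.4* (22.4-fold lower), *rltgr* (8.26-fold), *sb:cb1058* (7.9-fold), *zgc:174904* (8.51-fold), *zgc:154093* (9.74-fold), *zgc:174275* (9.99-fold) and *zgc:64106* (7.47-fold), where *rltgr* and *zgc:174904* were 21.4-fold and 21.4-fold lower without replicate 1 of tg(*hsp70l:tbx16*).

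In 7 members samples of the same genotype differed by over 3-fold in wild type, or by over 4-fold or with a 0 in tg(*hsp70l:msgn1*); they were picked after their values were seen. *rrm2*, the small subunit of ribonucleotide reductase, had 6.97, 70.1 and 4.36 CPM in wild type, 2.93, 3.18 and 3.78 CPM in tg(*hsp70l:tbx16*) and 48.4, 25.9 and 4.08 CPM in tg(*hsp70l:msgn1*). Its wild-type mean rests on replicate 2, without which the log2 fold change of *rrm2* was -0.92 in place of -3.22. A further line of the table with the name *rrm2* held 418, 368 and 483 CPM in wild type, 282, 303 and 456 CPM in tg(*hsp70l:tbx16*) and 426, 412 and 429.5 CPM in tg(*hsp70l:msgn1*), so the identity of the member is uncertain. *ctsba*, a cathepsin B gene that the hatching gland also expresses, had 35.4, 16.4 and 2.82 CPM in wild type, 2.81, 2.19 and 2.02 CPM in tg(*hsp70l:tbx16*) and 4.33, 46.6 and 3.52 CPM in tg(*hsp70l:msgn1*). The high samples of *ctsba* were replicate 1 of wild type and replicate 2 of tg(*hsp70l:msgn1*), and replicate 3 of both was close to tg(*hsp70l:tbx16*). *ctss2.1*, a cathepsin S gene, had 31.8, 8.35 and 26.6 CPM in wild type, 4.81, 0.564 and 1.11 CPM in tg(*hsp70l:tbx16*) and 12.1, 5.12 and 40.6 CPM in tg(*hsp70l:msgn1*). Without wild-type replicate 1 *ctsba* was 4.1-fold lower in place of 7.77-fold, and without replicate 1 of tg(*hsp70l:tbx16*) *ctss2.1* was 26.6-fold lower in place of 10.3-fold and *cd109* 24.7-fold in place of 13.3-fold. For *fga* the values were 6.24, 6.26 and 3.35 CPM in wild type, 1.8, 0.383 and 0.193 CPM in tg(*hsp70l:tbx16*) and 4.58, 6.32 and 0.947 CPM in tg(*hsp70l:msgn1*), with replicate 3 of tg(*hsp70l:msgn1*) below replicate 1 of tg(*hsp70l:tbx16*), and for *cd109* they were 8.2, 8.04 and 2.52 CPM in wild type, 0.902, 0.362 and 0.144 CPM in tg(*hsp70l:tbx16*) and 5.98, 9.25 and 6.42 CPM in tg(*hsp70l:msgn1*). Wild-type samples differed by over 4-fold in 2 members, *rrm2* and *ctsba*, which was so for 0.732% of all 12564 genes.

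**Figure D5:**
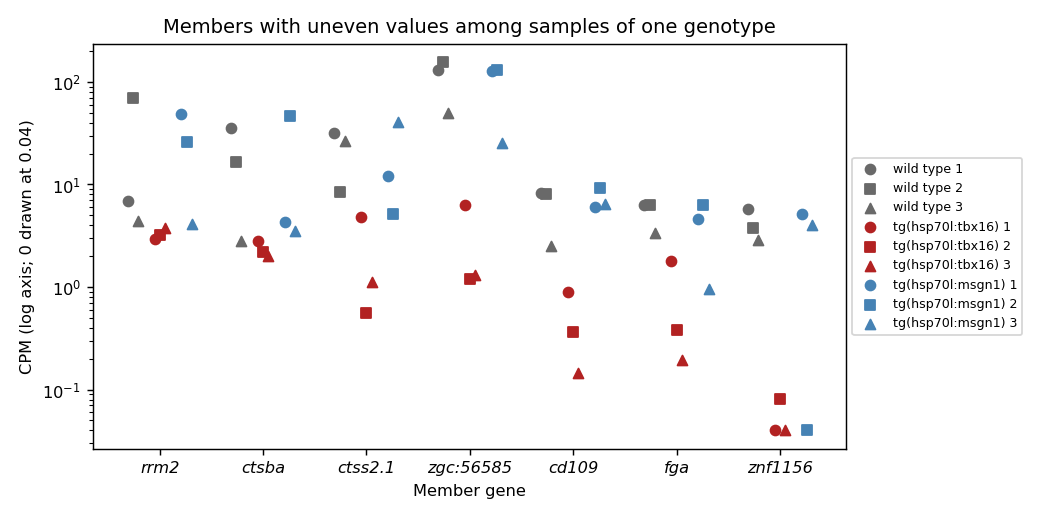
CPM (y axis, log scale, 0 drawn at 0.04) of 7 members (x axis) in wild type (grey), tg(*hsp70l:tbx16*) (red) and tg(*hsp70l:msgn1*) (blue), with a symbol for each replicate. For *rrm2* 1 wild-type sample stands at 70.1 CPM and the others at 6.97 and 4.36 CPM.

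Across members the spread among replicates, as the median SD of log2(CPM + 0.1), was 0.221 in wild type, 0.517 in tg(*hsp70l:tbx16*) and 0.344 in tg(*hsp70l:msgn1*), against 0.136, 0.157 and 0.253 over the 12564 genes. In tg(*hsp70l:tbx16*) it was 1.38 in the lipoprotein group, 1.2 in solute carriers and 1.28 in enzymes, and 0.479 in neural genes, 0.457 in regulators and 0.360 in genes of cell structure and membrane. Members are low in that line, where counting error weighs more on the log scale, and its part in their spread was not tested.

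The membership depended on single libraries. With each of the 9 samples left out in turn, 22 of the 71 members met the rule every time. Without replicate 1 of tg(*hsp70l:tbx16*) 126 genes met it, 65 of them members, and among the 61 further genes were *tfa* (transferrin), *fabp2* (an intestinal fatty acid binding protein), *fetub*, *serpina1* and *bhmt*. Without any other sample between 56 and 85 genes met it.

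In wild-type single-cell data of the tailbud, which the rule did not use, the study had drawn up lists of genes that change between successive cell states from neuronal and neuromesodermal progenitor (NMP) states through mesodermal progenitor, progenitor zone, and posterior and anterior presomitic mesoderm. Of the members 12 (16.9%) stood in at least 1 of these lists, against 1059 of the 12492 gene names with enough wild-type counts, members included (8.48%), and the 12 were 1.13% of these 1059. They were 6 of the 10 neural members (*grin2da*, *elavl3*, *sema3fb*, *lrrn1*, *drgx* and *prdm13*), the regulators *szl* and *cdx1a*, *slc7a11*, *rrm2*, *zgc:56585* and *zgc:154093*. Matching was by name, and as *rrm2* stands on 2 lines its listing may belong to the other line, without which 11 members remained. No lipoprotein or plasma protein gene (0 of 10) and no gene of cell structure and membrane (0 of 7) was listed. With 8.48% of all names listed, groups this small can hold 0, so nothing is read from these counts. From NMP to mesodermal progenitor 6 members fall in the lists (*drgx*, *elavl3*, *lrrn1*, *sema3fb*, *slc7a11* and *zgc:154093*) and 2 rise (*cdx1a* and *zgc:56585*). From NMP to neuronal 2 rise (*elavl3* and *prdm13*) and 4 fall (*sema3fb*, *cdx1a*, *zgc:154093* and *zgc:56585*). The neural member *grin2da* is listed only as rising from progenitor zone to posterior presomitic mesoderm, so a listing does not by itself mean a rise toward the neuronal state. *szl* rises from mesodermal progenitor to progenitor zone and falls on entry to the posterior presomitic mesoderm.

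By name, 64 of the 71 members were matched to RefSeq, 62 as protein-coding genes. They lay on 23 chromosomes, with at most 6 on any of them. Members were neighbours in 2 places: *a1cf* and *rltgr* overlap each other, and *slc26a1* and *rbp4l* both overlap *pde6b*. Of the matched members 17 overlap another coding gene. Strand use in the counting is not given in the sources used here, so reads of such pairs cannot be told apart.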

How the data were processed

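Poly(A) RNA of pooled tailbuds was sequenced in 9 samples, 3 per genotype. Per the labels and methods, the authors trimmed reads with Trim Galore 0.5.0, aligned them to GRCz11 with HISAT2 2.1.0 and quantified genes with StringTie. They deposited whole-number counts per gene without scaling. The step from StringTie to whole numbers and the annotation release are not given in the sources used here. Of 32020 lines, 64 have no name (0.082 to 0.10% of counts) and were left out of the fit, as they were of the rule. The rule used CPM by total count. A gene with 100 counts in a sample carries the counting error of 100 counts, and intervals and floors cover counting error only. Totals ran from 30750552 to 49654769.

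All genes were fitted in edgeR 4.0.16 (R 4.3.3, limma 3.58.1) over the 9 samples with TMM scaling, filterByExpr and the quasi-likelihood F-test, adjusted by Benjamini-Hochberg at 0.05. DESeq2 1.42.0 was an alternative. The rule and the lists ran in Python 3.11.15 (pandas 2.3.3, numpy 2.4.6, scipy 1.17.1). The fit was tested on simulated data. Counts of list genes carry no set test. Repeated names were kept as separate lines. The transition lists came from the supplement of the study, and only gene names and directions were read from them. Gene neighbours came from RefSeq (GRCz12tu), whose coordinates are of another build and are not printed.

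The members, their roles, the 15 gene lists and the tests were chosen with earlier results of these data known. Named are, per role, up to 4 members with the highest wild-type CPM, the 10 members with the lowest *tbx16* ratio, those nearest each threshold, those in the transition lists, neighbours and paralogs, and all remaining members in brief. List genes that are not members were named where a comparison turned on them, some after their values were seen. Alternatives were RLE factors, library size alone, DESeq2, no filter, only the compared groups, the replicate number as a block, an adjusted p under 0.01, each sample left out, and other thresholds and scalings of the rule.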

Additional observations from a re-analysis of the deposited data

How the results depend on the processing

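Under RLE factors, no filter and a fit of only the compared groups, the counts of all genes called kept within 1.5 times of 6120, 170 and 7637 (for the *tbx16* line, the *msgn1* line, and *tbx16* against *msgn1*). Scaling by library size alone gave 5961, 191 and 8272. DESeq2 called 703 genes in tg(*hsp70l:msgn1*). At an adjusted p under 0.01 the counts were 3213, 53 and 4134. With single replicates left out they ran from 3968 (without wild-type replicate 1) to 6644, from 37 (without wild-type replicate 1) to 1198 (without replicate 2 of tg(*hsp70l:msgn1*)), and from 5640 to 8010. Between 65 (without replicate 3 of tg(*hsp70l:tbx16*)) and 71 members were called lower in tg(*hsp70l:tbx16*) with a replicate left out, and 61 at 0.01. DESeq2 called 69, giving no adjusted p for *mttp* and *dao.1*. It called 1 member in tg(*hsp70l:msgn1*), where every other setting called 0.

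Of 1065 alternative log2 fold changes of members in tg(*hsp70l:tbx16*), 1065 were negative, and 41 moved by more than 1 SD of the replicates, as did 22 of the values in tg(*hsp70l:msgn1*). Nothing is read from the signs or from the counts of members called, because the rule chose the members on these contrasts. The number of members was 112 with TMM-scaled and 114 with RLE-scaled CPM (68 of the 71 in each), 169 at 1/4, 37 at 1/8, 37 with a narrower *msgn1* window, 108 with a wider window, and 110 with medians in place of means, 54 of them members. With a replicate left out it ran from 56 to 126. The machine learning list alone held 4 members, against 12 in either list and 11 in the DESeq2 list.

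Correlations of the deviations of same-numbered samples from their group means were 0.105, 0.0182 and 0.402 between wild type and tg(*hsp70l:msgn1*), -0.0445, 0.116 and -0.0688 for wild type with tg(*hsp70l:tbx16*), and -0.12, 0.0746 and -0.0557 between the lines. The value of 0.402 was the highest of all pairs between groups, but not every pair was over 0.1, not every sample correlated best with its own number, and the labels do not say that a number marks a shared clutch, so the numbers were not taken to pair the samples. With the replicate number as a block, 5436, 85 and 6901 genes were called, with 69 members lower in tg(*hsp70l:tbx16*) and 0 called in tg(*hsp70l:msgn1*), and the calls of *msgn1* in its own line (adjusted p = 0.0717) and of *apoeb* in tg(*hsp70l:tbx16*) (adjusted p = 0.0743) were lost. Promoter motifs were planned and not run. Of the members 47 had at least 100 counts over the 3 tg(*hsp70l:tbx16*) samples, and ratios of the others are limited by counting error. The count of 27 members with replicate 1 at least 2-fold above the other tg(*hsp70l:tbx16*) replicates was 27 with TMM-scaled and 27 with RLE-scaled CPM, alternatives chosen after seeing the data, as were the list counts without single libraries and the folds of members without single samples.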

Other observations

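For the lists without members, counts of tested genes called by edgeR are given, which do not measure the amount of a tissue. Over all tested genes 15.7% were lower and 15% higher in tg(*hsp70l:tbx16*), and lists near these shares say nothing particular about their genes. In tg(*hsp70l:tbx16*), neural progenitor genes had 14 of 24 lower and 2 higher, spinal progenitor and interneuron factors 12 of 27 lower and 3 higher, retinoid pathway genes 13 of 21 lower and 2 higher, neural crest genes 8 of 13 lower and 1 higher, and pronephros genes 7 of 12 lower and 1 higher. Blood and vessel genes had 5 of 17 lower and 3 higher, and paraxial mesoderm and muscle genes 5 of 23 lower and 3 higher. Epidermis genes had 6 of 20 lower and 0 higher, and their summed level differed among samples of every genotype, from 3970 to 14100 CPM in wild type, 7320 to 12700 CPM in tg(*hsp70l:tbx16*) and 3350 to 11500 CPM in tg(*hsp70l:msgn1*).

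Lists that hold 1 member each gave, among their other genes, 12 of 21 notochord, floor plate and hypochord genes lower and 1 higher (the member is *ptgdsa*), 6 of 16 forebrain and midbrain genes lower and 0 higher (*dlx6a*), and 2 of 7 hatching gland genes lower and 0 higher (*ctsba*), the last being 4 lower without replicate 1 of tg(*hsp70l:tbx16*). In that replicate 10 of the 16 forebrain and midbrain genes and 3 of the 7 hatching gland genes were at least 2-fold above the other replicates of the line.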
